A study of Mus musculus with 6 samples.

Results

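The proteasome subunit genes were taken as every gene measured by a probe set with a single gene symbol that reads Psma, Psmb, Psmc or Psmd followed by a number, with the inducible genes Psmb8 and Psmb9 left out. This gave 37 of the 18193 genes measured in the series, on 75 probe sets, and each gene was represented by whichever of its probe sets was brightest on average across the 6 arrays. Expression was measured in hippocampus on Affymetrix arrays, 1 per mouse, in 3 Dp(11)17/+ mice and 3 +/+ mice. Dp(11)17/+ mice carry, on one chromosome 11, an engineered duplication of a segment taken here as the genes from Cops3 to Rnf112, and the series title names them a model for Potocki-Lupski syndrome. Mice of both genotypes were labelled as 11 to 14 week old males of the C57BL/6-Tyr c-Brd background, and no label names a litter or batch. The sample titles are numbered codes of unstated meaning. Their first part differs in every mouse and is higher in all Dp(11)17/+ than in all +/+ mice. Whatever it stands for cannot be told apart from genotype. None of the 37 genes lies in the duplicated segment. The question put here was whether core, ATPase base and lid genes of the proteasome differ between the genotypes.

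The proteasome is the large protease that degrades proteins tagged with ubiquitin. Its core particle is a barrel of stacked rings, in which the alpha subunits (Psma) form the gated outer rings and the beta subunits (Psmb) the inner rings that hold the protease sites. A regulatory particle caps the barrel: the ATPases (Psmc) and a few further base subunits bind, unfold and translocate the substrate, and the lid (the remaining Psmd genes) removes the ubiquitin chain before degradation. In neurons the proteasome is known for the turnover of synaptic proteins. The transcription factor Nfe2l1 is known to raise proteasome genes together when proteasome activity is impaired, by binding antioxidant response elements in their promoters.

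Promoter sequences from RefSeq (GRCm38.p6, 250 bases before to 50 bases after the gene start) were found for 30 of the 37 genes. The core of the antioxidant response element, TGACNNNGC, searched on both strands, matched the promoters of 5 of these 30 genes (16.7%), against 14.0% of all 27025 genes with a promoter in the table. The 5 stretches are shown because Nfe2l1 is the best known common regulator of the set, with the match in capitals, lower-case flanks of up to 20 bases, and each written 5′ to 3′ on the strand of its gene.
Psmb5, chr14:54618014-54618062, minus strand: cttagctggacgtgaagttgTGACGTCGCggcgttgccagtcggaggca
Psmb6, chr11:70525328-70525356, plus strand: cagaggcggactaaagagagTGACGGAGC
Psmd9, chr5:123228139-123228187, plus strand: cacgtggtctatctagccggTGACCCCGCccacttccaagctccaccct
Psmc6, chr14:45329577-45329625, plus strand: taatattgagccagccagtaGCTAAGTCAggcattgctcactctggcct
Psmd12, chr11:107479278-107479309, plus strand: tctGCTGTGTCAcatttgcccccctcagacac
In Psmb5, Psmb6 and Psmd9 the match reads in the direction of the gene and begins 47, 9 and 31 bases upstream of its start. In Psmc6 and Psmd12 it lies on the other strand, from 227 and 247 bases upstream. A match is a description of these letters and was not tied to binding in these mice.

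Medians over 45037 probe sets were 3.76 to 3.79 in Dp(11)17/+ mice and 3.74 to 3.78 in +/+ mice on the log2 scale. The values had been normalized between arrays by the authors, so similar medians do not describe the brightness of the arrays before that step. The number of arrays limits the precision. Individual mice stood apart from their labels or their group. Dp(11)17/+ replicate 1, labelled male, had a log2 value of 9.13 for Xist, the RNA of the inactive X chromosome, against 3.06 to 3.69 in the other 5 mice. Its value for the Y-linked Eif2s3y was 2.48, against 5.41 to 6.01 in the other 5, so both genes went against its label. Hippocampal markers were present but uneven: the mean over 8 CA1 pyramidal cell markers was 7.09, 8.21 and 5.93 in Dp(11)17/+ replicates 1, 2 and 3, and 7.64 to 7.92 in +/+ mice. The mean over 8 dentate granule cell markers was 5.63, 7.21 and 5.07 in the same Dp(11)17/+ mice, and 6.28 to 6.74 in +/+ mice. Markers of neighbouring striatum had means of 7.52, 6.05 and 8.31 in Dp(11)17/+ mice, and 5.97 to 6.73 in +/+ mice, with 8 of 8 having a positive fold change. Those of thalamus and habenula had means of 4.84, 4.70 and 6.64, and 4.61 to 4.99 in +/+ mice, with 8 of 9 positive. The 3′ minus 5′ difference of the actin control probe sets was 1.47 to 1.74 in Dp(11)17/+ mice and 1.45 to 1.64 in +/+ mice on the log2 scale. In bulk tissue, fewer cells of a type and less RNA per cell cannot be told apart.

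No proteasome gene passed the test between the genotypes, and the differences were small. Limma with Benjamini-Hochberg adjustment called 0 of the 37 genes (smallest adjusted p = 0.994) and 0 of the 45037 probe sets, 0%. The plain equal-variance statistic also called 0. At an unadjusted p under 0.05 limma gave 1 gene, Psmd12, or 2.7%, where 3.17% of all genes and 2.82% of all probe sets had such a p. Psmd12 was lower in Dp(11)17/+ mice, as were 2.01% of all genes at that p, so the count is near the background. The log2 fold changes, Dp(11)17/+ minus +/+, ran from -0.24 for Psmd9 to 0.099 for Psmd11, with a median of -0.055. The value of Psmd9 rests on its brightest probe set and was -0.04 with the mean over its 3 probe sets. The median over all genes was -0.025.

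The fold changes leaned to the lower side. Of the 37 genes, 31 had a negative log2 fold change (83.8%), against 58.3% of all genes and 59.1% of the 7104 brighter genes, those averaging at least 6 on the log2 scale. With cyclic loess between the arrays the count was 26 of 37 (70.3%), against 52.2% of the brighter genes, and without +/+ replicate 2, the mouse with the highest values, 14 of the 37 were positive in place of 6. In 4 genes, Psma3, Psmb1, Psmb6 and Psmd12, every Dp(11)17/+ mouse lay below every +/+ mouse (10.8%, against 5.59% of all genes and 6.56% of the brighter ones). The opposite separation was found in 0 of the 37 genes, against 2.7% of all genes.

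The intervals put limits on the size of any difference. The 95% confidence interval of the fold change lay inside 1.5-fold in either direction for 37 of 37 genes, which held for 82.7% of the brighter genes and 85.6% of all genes. It lay inside 1.25-fold for 25 of the 37 (67.6%), against 38.2% of the brighter genes. The widest reach was that of Psmd9 on the lower side, to 0.71 of the +/+ level, and that of Psmd11 on the upper side, to 1.35 times the +/+ level. For Psmd12 alone the interval left out 0, and 576 of all 18193 genes had such an interval. The median pooled SD within groups over the 33 brighter members was 0.095 on the log2 scale, against 0.14 over all brighter genes. These members averaged 8.86 in duplication mice and 8.92 in +/+ mice, against 7.73 and 7.75 for all brighter genes. Neither the SDs nor the interval shares were matched for brightness. Whether proteasome genes vary less than genes of like brightness was not tested.

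**Figure D1:**
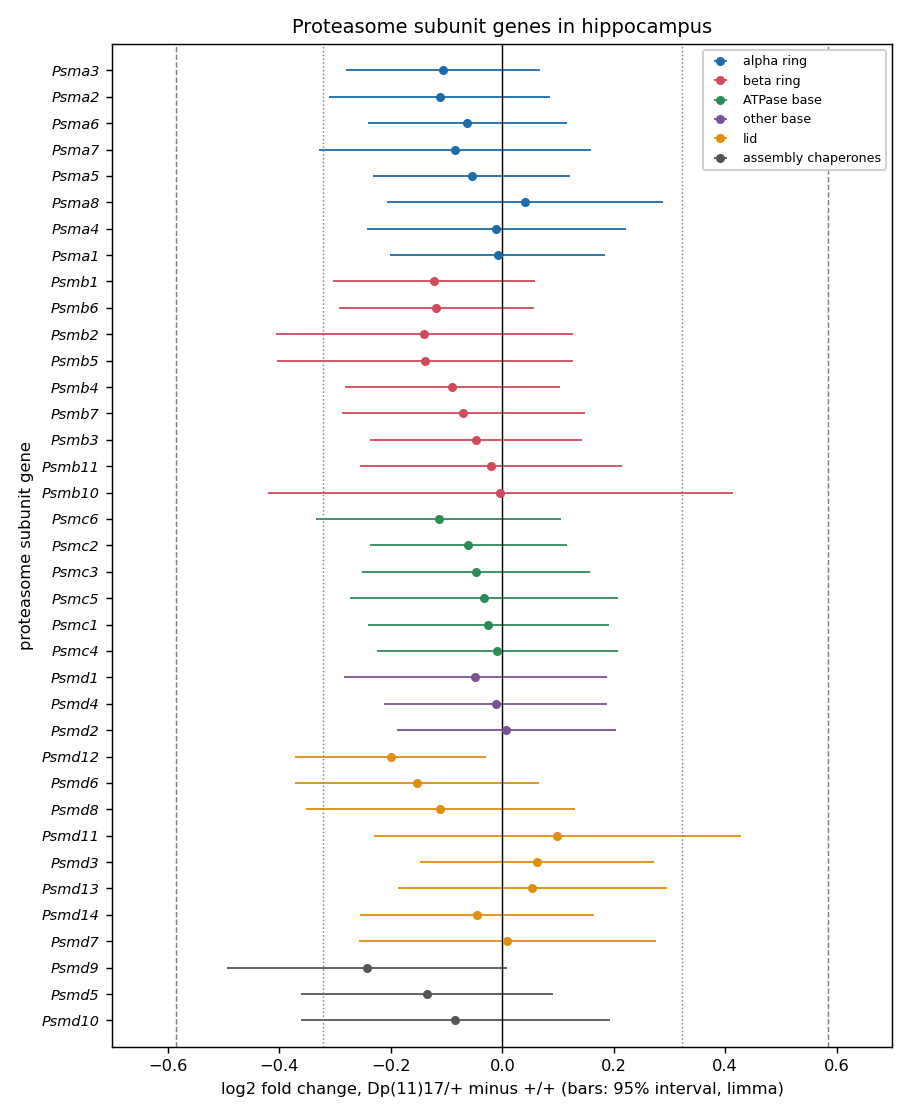
Log2 fold change (Dp(11)17/+ minus +/+, x axis) of the 37 proteasome subunit genes (y axis, coloured by sub-complex) with 95% intervals from limma as bars; dotted lines mark 1.25-fold and dashed lines 1.5-fold in either direction. All 37 intervals lie between the dashed lines, 31 of the 37 points lie left of 0, and the interval of Psmd12 is the 1 that leaves out 0.

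The alpha ring genes, whose products form the gate of the core particle, had negative fold changes in 7 of 8, with a median of -0.059 and 0 at an unadjusted p under 0.05. Psma3 had log2 values of 9.89, 9.93 and 9.92 in Dp(11)17/+ mice, against 10.07, 10.005 and 9.99 in +/+ mice. The groups did not overlap, but the log2 fold change was -0.11 (SE 0.074, unadjusted p = 0.192 by limma). Psma2 had 9.33, 9.46 and 9.25 in Dp(11)17/+ mice, against 9.45, 9.46 and 9.46 in +/+ mice. Here Dp(11)17/+ replicate 2 sat at the +/+ values while replicates 1 and 3 lay below them, and the log2 fold change was -0.11 (SE 0.084, unadjusted p = 0.222). The remaining alpha subunits of the standard core, Psma1, Psma4, Psma5, Psma6 and Psma7, had log2 fold changes between -0.085 and -0.0087. Psma8, an alpha subunit of the testis, had a log2 fold change of 0.041 at means of 3.12 in Dp(11)17/+ and 3.08 in +/+ mice, below the array medians.

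The beta ring genes had negative fold changes in 9 of 9, with a median of -0.09 and 0 at an unadjusted p under 0.05. The protease sites are carried by Psmb5 (chymotrypsin-like), Psmb6 (caspase-like) and Psmb7 (trypsin-like). Psmb5 had log2 values of 9.28, 9.61 and 9.25 in Dp(11)17/+ mice, against 9.53, 9.54 and 9.50 in +/+ mice. Replicates 1 and 3 lay below every +/+ mouse and replicate 2 above every +/+ mouse, so that the log2 fold change was -0.14 (SE 0.11, unadjusted p = 0.256) and turned to 0.093 with replicate 2 as the only Dp(11)17/+ mouse. The Dp(11)17/+ replicates that were low for Psmb5 were those with low CA1 and dentate marker means. The mean over 4 CA3 markers was 6.83, 7.05 and 7.01 in Dp(11)17/+ mice, against 7.15 to 7.48 in +/+ mice. Replicate 2 was thus below every +/+ mouse in that list as well. The part of tissue composition in the Psmb5 values was not tested. Psmb6 had 9.02, 9.09 and 9.07 in Dp(11)17/+ mice, against 9.15, 9.22 and 9.16 in +/+ mice. Its groups did not overlap, with a log2 fold change of -0.12 (SE 0.074, unadjusted p = 0.156). Psmb7 had 10.18, 10.26 and 10.14 in Dp(11)17/+ mice, against 10.13, 10.31 and 10.36 in +/+ mice. These overlapped, with a log2 fold change of -0.07 (SE 0.093, unadjusted p = 0.475).

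Among the other beta subunits, Psmb1 of the standard core, which has no protease site, had log2 values of 8.91, 8.92 and 8.87 in Dp(11)17/+ mice, against 9.01, 9.09 and 8.97 in +/+ mice. The groups did not overlap (log2 fold change -0.12, SE 0.077, unadjusted p = 0.153). Psmb3 had 9.56, 9.49 and 9.43 in Dp(11)17/+ mice, against 9.58, 9.57 and 9.47 in +/+ mice, which overlapped (log2 fold change -0.047, SE 0.081). Psmb2 and Psmb4 had log2 fold changes of -0.14 and -0.09. Psmb10, a catalytic subunit that replaces Psmb7 in the immunoproteasome, had the widest range of the 37 genes, with 7.23, 6.68 and 7.38 in Dp(11)17/+ mice, against 7.02, 7.17 and 7.12 in +/+ mice. Dp(11)17/+ replicate 2 was low and replicates 1 and 3 were above every +/+ mouse, and the log2 fold change of -0.0035 (SE 0.18, unadjusted p = 0.985) turned to 0.20 without replicate 2. Striatal marker means were high in the same replicates 1 and 3, and their part in the values of Psmb10 was not tested. Psmb11, the catalytic beta subunit of the thymus, had a log2 fold change of -0.021 at means of 2.93 in Dp(11)17/+ and 2.95 in +/+ mice, below the array medians.

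The ATPase base genes had negative fold changes in 6 of 6, with a median of -0.04 and 0 at an unadjusted p under 0.05. Without Dp(11)17/+ replicate 1, the mouse that went against its label, the median was -0.012. Their products form the ring that pulls the substrate into the core. Psmc6 had log2 values of 8.0, 8.16 and 8.24 in Dp(11)17/+ mice, against 8.30, 8.27 and 8.17 in +/+ mice. The ranges overlapped through Dp(11)17/+ replicate 3 and +/+ replicate 3, and the log2 fold change was -0.11 (SE 0.093, unadjusted p = 0.26). Psmc2 had 9.41, 9.38 and 9.47 in Dp(11)17/+ mice, against 9.45, 9.53 and 9.47 in +/+ mice, also overlapping (log2 fold change -0.061, SE 0.075). Psmc5 had 9.74, 9.68 and 9.90 in Dp(11)17/+ mice, against 9.82, 9.93 and 9.67 in +/+ mice. These spanned nearly the same range, with a log2 fold change of -0.033 (SE 0.10) that turned to 0.013 without Dp(11)17/+ replicate 2 and to 0.027 without +/+ replicate 2. Psmc1, Psmc3 and Psmc4 had log2 fold changes between -0.048 and -0.0089.

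The other base subunits anchor ubiquitin receptors and shuttling factors. Psmd1 had log2 values of 8.52, 8.49 and 8.48 in Dp(11)17/+ mice, against 8.61, 8.67 and 8.36 in +/+ mice, so that the Dp(11)17/+ mice lay inside the +/+ range (log2 fold change -0.048, SE 0.10, turning to 0.013 without +/+ replicate 2). Psmd4, itself a ubiquitin receptor, had 9.25, 9.23 and 9.25 in Dp(11)17/+ mice, against 9.31, 9.32 and 9.13 in +/+ mice. These too lay inside the +/+ range, and the log2 fold change of -0.012 (SE 0.085) turned positive without +/+ replicate 1 or 2 and with cyclic loess, reaching 0.022. Psmd2 had a log2 fold change of 0.0067 (SE 0.083).

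Fold changes of the lid genes were split, 4 positive and 4 negative, with a median of -0.018. The median was 0.025 with Dp(11)17/+ replicate 2 as the only duplication mouse. Psmd12, a scaffold subunit, had log2 values of 8.09, 8.15 and 8.13 in Dp(11)17/+ mice, against 8.33, 8.35 and 8.29 in +/+ mice. The groups did not overlap and its pooled SD within groups, 0.028, was the smallest among the 33 brighter members. Means were 8.12 ± 0.03 in Dp(11)17/+ and 8.32 ± 0.027 in +/+ mice (SD, n = 3 each), and the log2 fold change of -0.20 (SE 0.073, 0.87-fold) had an unadjusted p = 0.0277 and an adjusted p = 0.994 by limma. Without Dp(11)17/+ replicate 1 or 3 or +/+ replicate 1 or 2 the unadjusted p was 0.0837, 0.0591, 0.066 and 0.0709, while its log2 fold changes with each mouse left out ran from -0.22 to -0.18.

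Psmd6, another scaffold subunit of the lid, had log2 values of 8.97, 9.19 and 8.95 in Dp(11)17/+ mice, against 9.24, 9.18 and 9.15 in +/+ mice. Replicates 1 and 3 lay below every +/+ mouse and replicate 2 among them (log2 fold change -0.15, SE 0.093, unadjusted p = 0.144). Psmd14, the deubiquitinase of the lid, had 9.80, 9.97 and 9.83 in Dp(11)17/+ mice, against 10.02, 9.86 and 9.86 in +/+ mice. The groups overlapped, and the log2 fold change of -0.046 (SE 0.089) turned to 0.0051 without +/+ replicate 1 and to 0.057 with Dp(11)17/+ replicate 2 alone. Psmd11, known for promoting assembly of the lid with the core, had 9.35, 9.30 and 9.39 in Dp(11)17/+ mice, against 9.44, 9.37 and 8.93 in +/+ mice. Its positive log2 fold change of 0.099 (SE 0.14) came with a single low mouse and was -0.058 without that mouse, +/+ replicate 3. Psmd3 had 7.72, 7.72 and 7.73 in Dp(11)17/+ mice, against 7.53, 7.68 and 7.78 in +/+ mice, a range that encloses the Dp(11)17/+ values (log2 fold change 0.062, SE 0.089, turning to -0.0047 without +/+ replicate 1). The remaining lid genes were Psmd8 at -0.11, Psmd13 at 0.054 and Psmd7 at 0.0091.

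The assembly chaperones of the base, which carry Psmd names but leave the finished particle, had negative fold changes in 3 of 3. Psmd9 had log2 values of 5.67, 5.73 and 5.62 in Dp(11)17/+ mice, against 5.71, 6.02 and 6.02 in +/+ mice. The groups overlapped at +/+ replicate 1, and the log2 fold change was -0.24 (SE 0.11, unadjusted p = 0.0564). Without +/+ replicate 1 it was -0.34, with an unadjusted p under 0.05 and an adjusted p of 0.782 by limma. The other Psmd9 probe sets, both dimmer, gave 0.0055 and 0.12. Psmd5 had 6.85, 6.91 and 6.69 in Dp(11)17/+ mice, against 6.94, 7.06 and 6.87 in +/+ mice, with a log2 fold change of -0.14 (SE 0.096, unadjusted p = 0.201) and overlapping groups. Psmd10, an oncoprotein known as gankyrin and the 1 member on the X chromosome, had a log2 fold change of -0.085 (SE 0.12). Dp(11)17/+ replicate 1, the mouse with high Xist, had 5.50 for Psmd10, the highest of the Dp(11)17/+ mice. Dp(11)17/+ replicates 2 and 3 had 5.28 and 5.35, and the +/+ mice 5.32, 5.67 and 5.40. A link between this value and Xist was not tested.

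**Figure D2:**
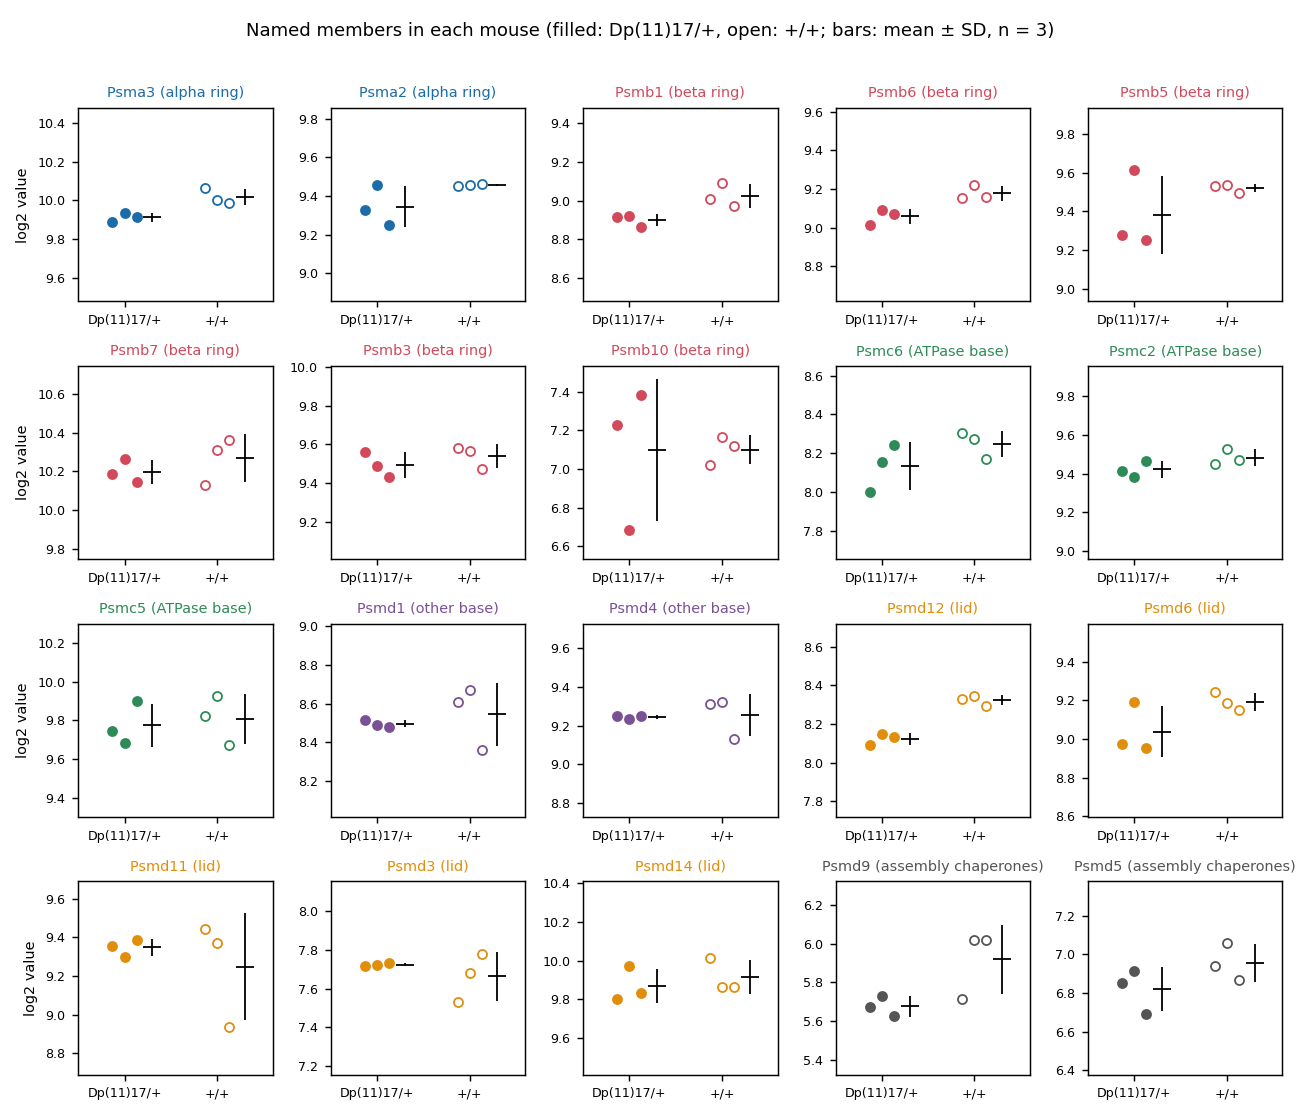
Log2 value (y axis, each panel spanning 1 log2 unit) of 20 named members in each mouse, filled for Dp(11)17/+ and open for +/+ (x axis), with mean and SD bars (n = 3). Psma3, Psmb1, Psmb6 and Psmd12 show no overlap between the genotypes, Psmb5 and Psma2 show 2 low Dp(11)17/+ mice, and Psmb10 shows 1.

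Across mice, the genotypes differed by less than 0.1 in the averages over the core, ATPase base and lid. The mean over the 37 genes was 8.34, 8.39 and 8.36 in Dp(11)17/+ mice, against 8.41, 8.47 and 8.39 in +/+ mice. Means by genotype were 8.36 ± 0.026 and 8.42 ± 0.044 for Dp(11)17/+ and +/+ (SD, n = 3 each), a difference of -0.061. The ranges overlapped, by little, at Dp(11)17/+ replicate 2 and +/+ replicate 3, while the mean over all brighter genes differed by -0.019. For the beta ring the means were 8.42, 8.43 and 8.38 in Dp(11)17/+ mice, against 8.46, 8.51 and 8.51 in +/+ mice, with no overlap and a difference of -0.084. For the 17 core genes they were 8.41, 8.47 and 8.41, against 8.48, 8.52 and 8.49 in +/+ mice, also without overlap. Such a separation was not particular to the core. Among lists described below, the means of the COP9 signalosome, the CCT chaperonin and the activators and inducible subunits did not overlap either. Those of the other partner lists and of all brighter genes did. Within the proteasome the differences were -0.05 for the alpha ring, -0.048 for the ATPase base and -0.036 for the lid, with overlapping mice in each.

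Single mice set the order for many genes. Dp(11)17/+ replicate 1 was the lowest of the 6 mice for 13 of the 37 genes and replicate 3 for 10, while +/+ replicate 2 was the highest for 16. The mean of all brighter genes in +/+ replicate 2 lay 0.027 above the +/+ mean, and that of the proteasome genes 0.049 above it. In 7 genes (Psma2, Psma4, Psmb2, Psmb5, Psmc3, Psmd6 and Psmd14) Dp(11)17/+ replicate 2 exceeded both other Dp(11)17/+ mice by more than 0.1, a share of 18.9% against 19.6% of all brighter genes. The opposite, seen for Psmb10, made up 2.7% of the proteasome genes and 24.2% of the brighter genes.

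**Figure D3:**
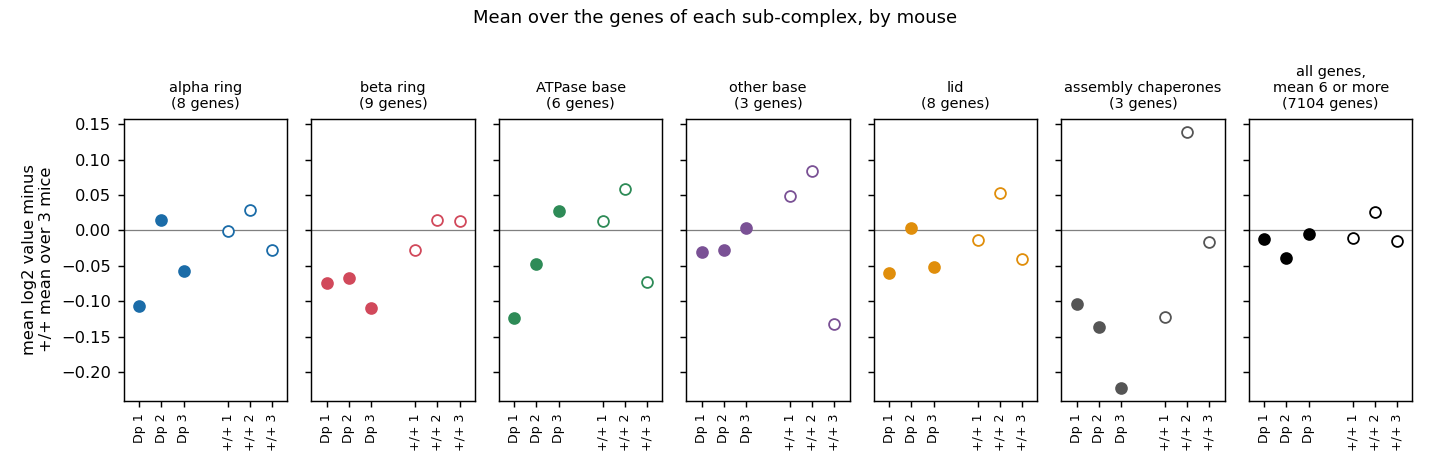
Mean log2 value over the genes of each sub-complex in each mouse, minus the mean of the 3 +/+ mice (y axis), with Dp(11)17/+ mice filled and +/+ mice open (x axis). The beta ring is lower in the 3 Dp(11)17/+ mice than in the 3 +/+ mice; the other sub-complexes overlap, and the 7104 brighter genes span -0.039 to 0.027.

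Because the duplication lies on chromosome 11, the 6 proteasome genes on that chromosome but outside the segment were set apart. They were Psmb3, Psmb6, Psmc5, Psmd3, Psmd11 and Psmd12, with 4 negative and 2 positive fold changes and a median of -0.04, against -0.055 over the 37 genes. In 2 of the 6, Psmd12 and Psmb6, every Dp(11)17/+ mouse lay below every +/+ mouse (33.3%, against 5.59% of all genes). A share of 6 genes is imprecise, and an effect of the chromosome was not tested. Their intervals reached from -0.37 to 0.43.

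Further probe sets gave a second reading for 19 of the genes, on 38 probe sets. Of the 14 that averaged at least 6, 9 had a negative fold change, 11 had the sign of the brightest probe set and 0 had an unadjusted p under 0.05, with a median of -0.052. The second probe set of Psmb3 gave a log2 fold change of -0.22, against -0.047 at its brightest. Psmd6 had -0.029 at its second, against -0.15. Psmb4 had 0.081 and Psmc4 had 0.064 at theirs, both with the opposite sign, and so had 1 of 3 for Psmd11, at -0.032. The 24 dimmer probe sets had a median of 0.022, and Psma3, averaged over all its probe sets, gave 0.041. Psmd12, Psmb5 and Psmb6 have 1 probe set each and no second reading. By the array's naming, probe sets that may also bind related sequences represented Psma6 and Psmc2 (suffix x) and Psmd11 (suffix s). Pseudogenes exist for several core genes. A probe set without such a suffix gave -0.14 for Psma6 and -0.092 for Psmc2, against -0.063 and -0.061 at the brightest. At both, every duplication mouse lay below every +/+ mouse, unlike at the brightest. The genotypes overlapped at the rest of the 14 further probe sets averaging at least 6.

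Genes that build, regulate or feed the proteasome had fold changes from -0.30 to 0.18. In 5 lists of partner genes, 35 of 45 genes were measured by a probe set of 1 symbol, 27 of the 35 had a negative fold change (77.1%, against 58.3% of all genes), and the median was -0.053. Limma called 0 of the 35, and 0 had an unadjusted p under 0.05. Among assembly factors (5 of 5 negative), Pomp, which matures the core, stood at -0.041 on the log2 scale (SE 0.10), and the chaperones Psmg2 and Psmg1 had -0.17 and -0.14. Of the activators and inducible subunits (5 of 6 negative), Psme1, part of the interferon-induced activator, had log2 values of 7.87, 7.60 and 7.24 in Dp(11)17/+ mice, against 7.68, 8.07 and 7.85 in +/+ mice. These overlapped (log2 fold change -0.30, SE 0.17, unadjusted p = 0.129). Psme4, an activator that caps the core without ATPases, had 0.18 (SE 0.18). The immunoproteasome genes Psmb8 and Psmb9 had -0.057 (SE 0.084) and -0.043 (SE 0.12).

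Of the receptors and deubiquitinases that associate with the particle, 7 of 10 were negative (70%). The fold change of Usp14, which trims ubiquitin on the proteasome, was -0.15 on the log2 scale (SE 0.091) and that of Zfand5, a proteasome-binding zinc finger protein, 0.11 (SE 0.073). The regulators were closest to 0, with 6 of 9 negative (66.7%) and a median of -0.024. Nfe2l1 had log2 values of 8.83, 8.29 and 8.81 in Dp(11)17/+ mice, against 8.56, 8.65 and 8.89 in +/+ mice, with a log2 fold change of -0.056 (SE 0.17). Dp(11)17/+ replicate 2 was the lowest and the groups overlapped. Psmb5, Psmb6, Psmd9, Psmc6 and Psmd12, the genes with a matched promoter shown above, had log2 fold changes of -0.14, -0.12, -0.24, -0.11 and -0.20. The median over the 37 genes was -0.055, and Psmd9 had -0.04 with the mean over its probe sets. The share of genes with a match was 16.7%, against 14.0% of all genes with a promoter. Whether fold changes differ between genes with and without a match was not tested. The regulators with the smallest unadjusted p were Nrf1 at -0.065 and Nfyc at 0.077. Among ubiquitin shuttling genes (4 of 5 negative), Faf2 had -0.15 (SE 0.075) and the unfoldase Vcp 0.13 (SE 0.11).

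The COP9 signalosome is built on subunits related to those of the proteasome lid, and its Cops3 gene is at one end of the duplicated segment. Of its 10 genes 9 had a negative fold change (90%, against 58.3% of all genes), with a median of -0.145. In 5 of them (50%, against 5.59% of all genes) every Dp(11)17/+ mouse lay below every +/+ mouse. For the lid the counts were 4 of 8 and 1 of 8, with a median of -0.018. Limma called 0 in either, and the difference between the complexes was not tested. Gps1 and Cops3, those with the smallest unadjusted p, had log2 fold changes of -0.17 (SE 0.08) and -0.17 (SE 0.081). Cops3 had 8.35, 8.44 and 8.52 in Dp(11)17/+ mice, against 8.61, 8.62 and 8.58 in +/+ mice, so the duplication mice were not higher at this probe set.

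**Figure D4:**
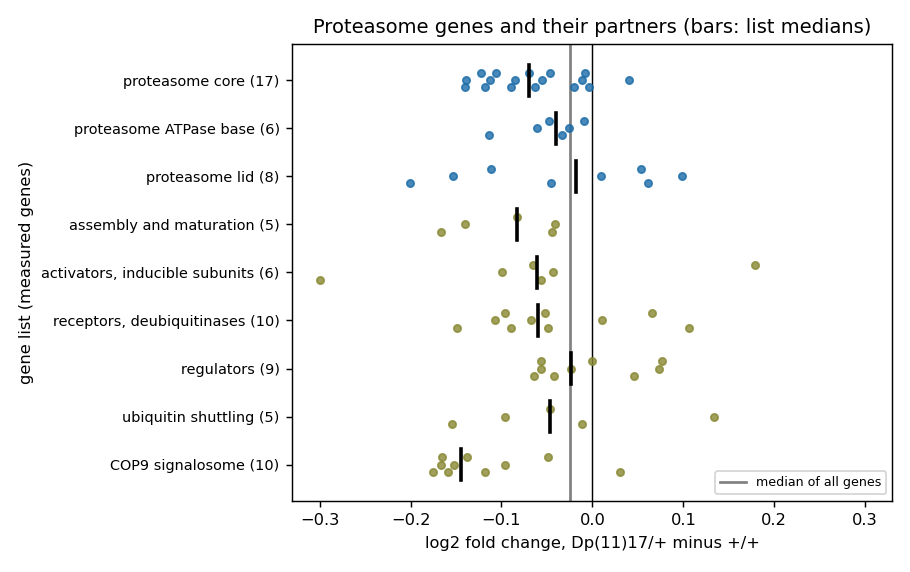
Log2 fold change (Dp(11)17/+ minus +/+, x axis) of each gene of the core, ATPase base and lid (blue) and of partner lists and the COP9 signalosome (olive; y axis, measured genes in brackets), with list medians as bars. Proteasome medians run from -0.07 for the core to -0.018 for the lid, and the grey line marks the median of all genes, -0.025.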

How the data were processed

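Hippocampal RNA of 6 mice was labelled with biotin and hybridized to 1-colour Affymetrix arrays, per the labels' protocols, whose extraction text lists whole brain and other organs but not hippocampus, and whose labelling text speaks of pools although each source name gives 1 individual. The deposited log2 values, 1 per probe set, were made by the authors with RMA, per the submitters' processing notes. Its version and a genome build are not given in the sources used here. They were used as deposited. Of the probe sets, 64 controls were left out, 34945 of the 45037 others had 1 gene symbol, 932 several and 9160 none. Entrez identifiers placed 34741 of the 34945, and all 37 members, in the RefSeq table of GRCm38.p6, from which chromosomes and gene order were taken.

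Genotypes were compared by limma 3.58.1 in R 4.3.3 (lmFit, eBayes, two-sided, no covariate, 7.11 degrees of freedom), with Benjamini-Hochberg adjustment over 45037 probe sets at 0.05. The analysis code was tested on simulated data. Values in each mouse are given for members with an unadjusted p under 0.05, the 2 with the smallest p in each sub-complex, Psmb5, Psmb6, Psmb7, Psmb10, Psmd14 and those on chromosome 11. Other members are given by fold change. In the lists of other genes the 2 with the smallest p were named, with Psmb8, Psmb9, Nfe2l1 and Pomp always. Genes listed for a pattern across mice or probe sets, Psmd10 in each mouse, and the CCT and marker genes beyond these were named after their values were seen. Members and lists were chosen with earlier results of these data known. Means over several genes were compared without a p-value. Alternatives were filters on dim probe sets, rescaling, other variance models and statistics, other probe set choices and each mouse left out. The 2 Psmb genes outside the rule, Psmb8 and Psmb9, stand among the partner lists. The limma p-values set the difference between genotypes against the spread between these mice, moderated over all probe sets. No label names a litter, so an effect of litter cannot be told apart from genotype.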

Additional observations from a re-analysis of the deposited data

How the results depend on the processing

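Limma and the equal-variance statistic called 0 of the 37 proteasome genes in the 6-mouse fit and in each of the 15 alternatives that gave p-values. No paired analysis was run because no label pairs mice across the genotypes, and the replicate numbers used here are not taken as pairs. Over the whole table, 0 probe sets passed after adjustment and 1272 had an unadjusted p under 0.05. The count of members at an unadjusted p under 0.05 was 1 and became 4 with the equal-variance statistic (Psma3, Psmb1, Psmb6 and Psmd12). With a mouse left out it was 0 to 3: 0 without Dp(11)17/+ replicate 1, Dp(11)17/+ replicate 3 or +/+ replicate 2, and 3 without Dp(11)17/+ replicate 2 (Psmb5, Psmd6 and Psmd12). The shares of all genes at that p under these settings are not given here. The 3.17% of the 6-mouse limma fit need not hold for them, so these counts cannot be set against a background. The count of members with a positive fold change was 6, and became 11 with cyclic loess and 11 with Dp(11)17/+ replicate 2 alone, and 5 to 14 with a mouse left out. With Dp(11)17/+ replicate 2 alone the median was -0.037 for the core, 0.025 for the lid, -0.089 for the ATPase base and -0.037 for all members. With a mouse left out the medians ran from -0.10 to -0.048 for the core (the lowest without Dp(11)17/+ replicate 2), from -0.09 to -0.0039 for the ATPase base, from -0.058 to -0.0003 for the lid and from -0.082 to -0.034 for all members. The cause of these shifts was not tested. The scalings moved the median of all genes between -0.034 and -0.013. With cyclic loess the median was -0.031 for all members, against -0.055 as deposited, -0.047 for the core, -0.017 for the ATPase base and 0.0038 for the lid. Signs or sizes changed in single genes, not only in those near 0. Psmb10 had 0.019 with cyclic loess, 0.063 with array weights and -0.15 to 0.20 with a mouse left out. Psmd4 had 0.012 with cyclic loess and -0.075 to 0.022 with a mouse left out. Psma3 had 0.041 over all its probe sets, against -0.11 at the brightest, with a dim probe set (mean 4.13) at 0.19. Psmd9 had -0.04 over all its probe sets, against -0.24 at the brightest, without a turn of sign. Psmb5 had 0.093 and Psmd14 0.057 with Dp(11)17/+ replicate 2 alone. With a mouse left out, Psmd14 ran from -0.097 to 0.0051, Psmc5 from -0.10 to 0.027, Psmd1 from -0.14 to 0.013, Psmd3 from -0.0047 to 0.12 and Psmd11 from -0.058 to 0.20. With 3 arrays a group, values below the array medians, as for Psma8 and Psmb11, carry no statement on expression.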

Other observations

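The CCT chaperonin, a ring complex that folds actin and tubulin, was measured as another abundant multi-subunit machine. Its 8 genes all had negative log2 fold changes in Dp(11)17/+ against +/+ mice (58.3% of all genes had), with a median of -0.13. In 4 of them, Cct2, Cct4, Cct7 and Cct8, every Dp(11)17/+ mouse lay below every +/+ mouse (50%, against 5.59% of all genes). Limma called 0 of the 8, and 0 had an unadjusted p under 0.05. Those with the smallest unadjusted p were Cct7 at -0.20 (SE 0.093) and Cct4 at -0.16 (SE 0.078). The mean over the 8 genes was 9.54, 9.58 and 9.53 in Dp(11)17/+ mice, and 9.64, 9.74 and 9.65 in +/+ mice.

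Markers of other cell types of the tissue also had values that differed between mice, and limma called 0 of them after adjustment. The mean over 5 choroid plexus markers was 7.62, 5.21 and 7.62 in Dp(11)17/+ mice, and 8.55, 5.02 and 5.10 in +/+ mice. Microglial markers had positive fold changes in 6 of 6, with unadjusted p = 0.0361 for P2ry12 at 0.35 and 0.0402 for Csf1r at 0.24 by limma. Endothelial markers were positive in 4 of 5, with Tek at 0.25 and Flt1 at 0.39. Oligodendrocyte markers were positive in 5 of 5 with a median of 0.23, and astrocyte markers in 5 of 6 with a median of 0.11. CA3 markers were negative in 4 of 4, CA1 markers in 8 of 8 and dentate markers in 6 of 8. Tek, Flt1, the dentate marker Pdzd2 at 0.81 and the CA3 marker Cpne4 at -0.57 had unadjusted p = 0.0158, 0.0359, 0.0182 and 0.0493 by limma. Pdzd2 thus went against most dentate markers. Of all genes, 3.17% had an unadjusted p under 0.05 and 58.3% a negative fold change.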
